A study of Mus musculus with 8 samples.

Results

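A set of 10 genes that cardiac fibroblasts and their neighbors use to build and sense the interstitial matrix was followed in the hearts of *Dio3*+/+ and *Dio3*-/- mouse fetuses. They were chosen by name, with earlier results of these data known: the growth factor receptors *Pdgfra* and *Pdgfrb*, the small proteoglycans *Dcn* and *Lum*, the fibulins *Fbln1* and *Fbln2*, and *Fn1*, *Eln*, *Vcan* and *Tnc*. They are 10 of the 26590 gene symbols and 37 of the 51414 transcript rows of the deposited table, and all 10 genes and all 37 rows passed the filter on low values. Each gene is represented by its most abundant row, judged by the average of the genotype means, and the other rows are given further on.

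The interstitial matrix is the mesh of fibers, glycoproteins and proteoglycans between cardiac cells. In the fetal heart it is made largely by mesenchymal cells that come from the epicardium and the endocardial cushions, which become the fibroblasts of the ventricular wall and the interstitial cells of the valves, and by smooth muscle cells of the outflow vessels. The PDGF receptors are tyrosine kinases by which these cells and the mural cells of vessels receive growth signals. Fibronectin and versican dominate the early, loose matrix, and elastin with its fibulin and microfibril partners is laid down later, foremost in the large arteries and the valves.

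*Dio3* encodes the type 3 deiodinase, an enzyme that clears thyroid hormone, and the comparison asks how gene expression in the fetal heart differs when the enzyme is absent. Total RNA of 4 *Dio3*+/+ and 4 *Dio3*-/- hearts, each from 1 fetus on a C57BL/6J background and with no treatment named, was sequenced after removal of ribosomal RNA. The *Dio3*-/- fetuses carried a germline inactivation and so lacked the enzyme in every tissue, not in the heart alone. The sample titles give E13.5 for all 8 hearts, E18.5 stands in the age field of *Dio3*-/- hearts 3 and 4, and the methods of the study name the day after E13.5. Levels are the authors' genotype means in RPKM (read counts divided by transcript length and by the mapped total), and spread is their coefficient of variation (CV), the SD divided by the mean among the 4 hearts of a genotype. Values for single hearts and read totals were not analysed here, so which hearts are high or low, and the depth behind each value, are unknown. The design text calls the hearts male, whereas *Xist*, the transcript of the inactive X of females, had means of 35.6 (CV 0.99) and 40.0 RPKM (CV 0.55), so that at least 1 heart of each genotype went against that label. Whole-heart RNA cannot tell fewer cells of a type from less RNA per cell.

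Promoter sequences of RefSeq (build GRCm38.p6) were found for 5 of the 10 genes, *Pdgfra*, *Fbln1*, *Fbln2*, *Vcan* and *Tnc*, in 7 windows. The genes *Pdgfrb*, *Dcn*, *Lum*, *Fn1* and *Eln* had no entry. Thyroid hormone receptors bind the half-site AGGTCA, which was searched on both strands in the 250 bases before each start. It was in none of the 7 windows and in 14% of all 32851 windows of that length. TATAAA was in the 2 overlapping windows of *Tnc* (12.4% of all windows) and GGGCGG, the core of a GC box, in 5 of the 7 (32.7% of all windows), with no overlap between motifs. The windows of *Tnc* hold the same TATAAA and the same GGGCGG, each counted once per window. Those of *Fbln1* overlap too, so the 7 windows are not separate promoters. The windows of *Tnc* and *Pdgfra* are shown because these 2 genes, among those with an entry, had the widest spread between hearts. Capitals mark TATAAA and GGGCGG on either strand, and the window of *Pdgfra* has none of the 3 motifs.
Tnc, chr4:64047016-64047265, minus strand: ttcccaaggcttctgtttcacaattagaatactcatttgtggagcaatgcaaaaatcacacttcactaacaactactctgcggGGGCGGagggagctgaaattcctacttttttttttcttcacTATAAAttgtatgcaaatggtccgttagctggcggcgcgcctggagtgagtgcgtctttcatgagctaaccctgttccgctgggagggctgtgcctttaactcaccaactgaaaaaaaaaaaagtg
Pdgfra, chr5:75152001-75152250, plus strand: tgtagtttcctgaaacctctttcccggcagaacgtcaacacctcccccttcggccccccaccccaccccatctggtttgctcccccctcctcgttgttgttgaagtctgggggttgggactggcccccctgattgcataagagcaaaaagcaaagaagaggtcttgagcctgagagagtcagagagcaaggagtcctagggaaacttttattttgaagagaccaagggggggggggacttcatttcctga
A match of letters is a description of the window and not a binding site.

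*Fn1* was the most abundant of the 10 genes in both genotypes and *Pdgfrb* the least, with authors' means of 186 and 13.8 RPKM in *Dio3*+/+ hearts and 202 and 14.2 RPKM in *Dio3*-/- hearts. In *Dio3*+/+ hearts the order ran *Fn1*, *Vcan*, *Eln*, *Dcn*, *Fbln2*, *Fbln1*, *Lum*, *Pdgfra*, *Tnc* and *Pdgfrb*. In *Dio3*-/- hearts *Eln* stood above *Vcan*, and the rest of the order was the same. Only 2 of the 9 steps of this order separated neighbors by more than 1 SD on each side in *Dio3*+/+ hearts, *Fn1* over *Vcan* and *Fbln2* over *Fbln1*, whereas 6 of the 9 steps did so in *Dio3*-/- hearts. In the plot of levels the bars of *Lum*, *Pdgfra* and *Tnc* are long for *Dio3*+/+ and short for *Dio3*-/- hearts.

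**Figure D1:**
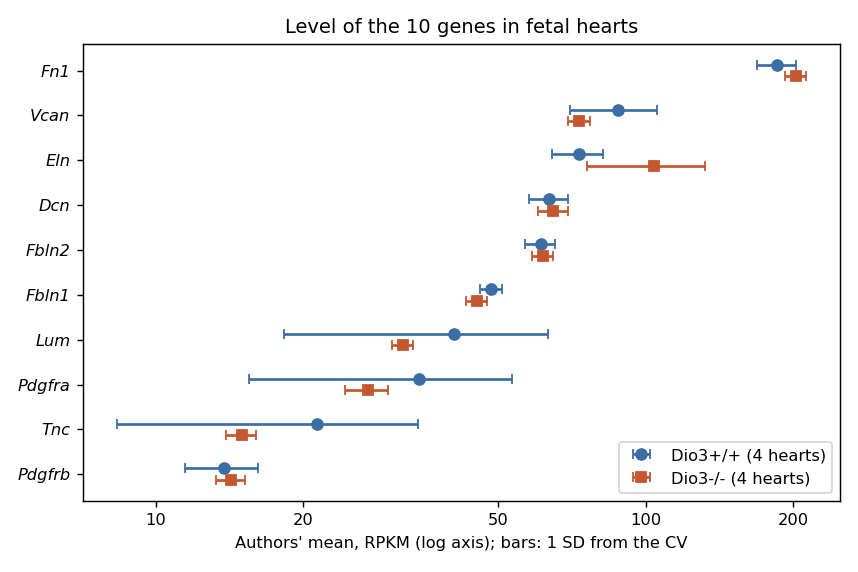
Level of each gene (rows) as the authors' mean in RPKM on a log axis, for 4 Dio3+/+ hearts (circles) and 4 Dio3-/- hearts (squares), with bars of 1 SD calculated from the deposited CV. The bars of the genotypes overlap for all 10 genes, and those of Lum, Pdgfra and Tnc are wide in Dio3+/+ hearts only, with CVs of 0.55 to 0.61.

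None of the 10 genes differed between the genotypes with a limma-adjusted *P* value under 0.05. Of all 14657 genes tested by the same rule, 336 (2.29%) did, 1.91% higher and 0.382% lower in *Dio3*-/- hearts. An unadjusted *P* value under 0.05 was found for 1 of the 10, *Eln*, and for 19.7% of all tested genes, and by Welch's test none of the 10 was under 0.05 with or without adjustment, against 0.184% of all tested genes with it. The intervals of the mean and 1 SD overlapped for each of the 10 genes, whereas they did not overlap for 15.5% of all tested genes. Of the 10 genes, 5 had a higher mean in *Dio3*-/- hearts and 5 a lower one, with a median log2 fold change of -0.04 against 0.04 over all tested genes. Differences are given as *Dio3*-/- minus *Dio3*+/+ on the log2(RPKM + 0.5) scale, with standard errors (SE) and 95% confidence intervals.

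**Figure D2:**
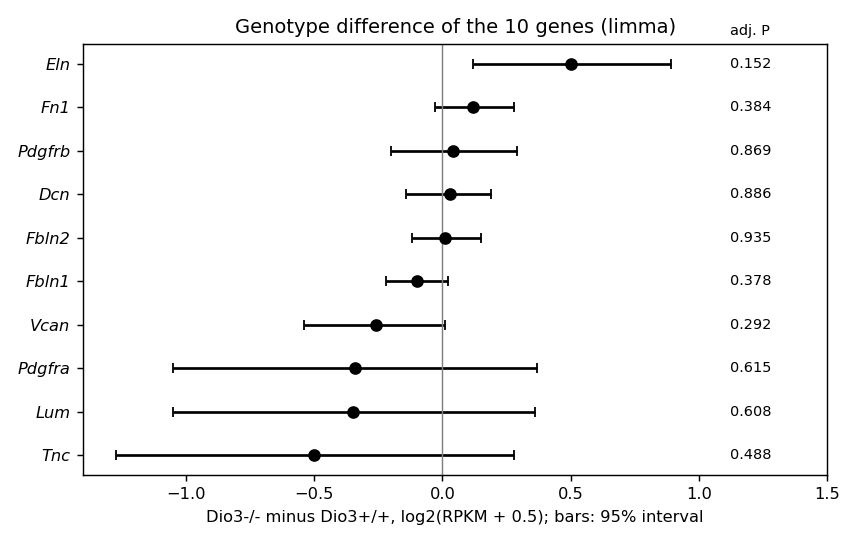
Difference between genotypes of each gene on the log2(RPKM + 0.5) scale (x axis, positive when higher in Dio3-/- hearts), with the 95% confidence interval as a bar and the adjusted P value by limma at the right. The limma interval excludes 0 only for Eln (0.12 to 0.89), whose adjusted P value is 0.152, and it is widest for Tnc, Pdgfra and Lum. By Welch's test the unadjusted P value of Eln is 0.074.

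The receptors had unequal spread. *Pdgfra*, the PDGF receptor α that marks fibroblasts and their mesenchymal precursors, averaged 34.4 RPKM (CV 0.55) in *Dio3*+/+ hearts and 27.0 RPKM (CV 0.10) in *Dio3*-/- hearts. Its log2 fold change of -0.34 (SE 0.32, interval -1.05 to 0.37, limma-adjusted *P* = 0.615) leaves room for a mean at 0.481 to 1.29 times the *Dio3*+/+ mean. These bounds pool the unequal spread of the genotypes and may be too narrow. The unadjusted *P* value was 0.31 by limma and 0.45 by Welch's test, which does not pool. *Pdgfrb*, the PDGF receptor β of pericytes, smooth muscle and epicardium-derived cells, had means of 13.8 (CV 0.17) and 14.2 RPKM (CV 0.07). Its log2 fold change was 0.04 (interval -0.20 to 0.29, limma-adjusted *P* = 0.869), which bounds a difference to 0.871 to 1.22 times. *Pdgfra* was thus 2.50 times as abundant as *Pdgfrb* in *Dio3*+/+ hearts and 1.90 times in *Dio3*-/- hearts by the genotype means, and no test of this ratio could be made without single hearts.

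*Dcn* and *Lum* encode decorin and lumican, related small leucine-rich proteoglycans that bind collagen fibrils and limit their width. *Dcn* had 63.6 RPKM (CV 0.09) in *Dio3*+/+ and 64.7 RPKM (CV 0.07) in *Dio3*-/- hearts (log2 fold change 0.03, SE 0.07, interval -0.14 to 0.19, limma-adjusted *P* = 0.886). *Lum* had 40.7 RPKM (CV 0.55) and 31.9 RPKM (CV 0.05), with a log2 fold change of -0.35 (SE 0.31, interval -1.05 to 0.36, limma-adjusted *P* = 0.608). These proteoglycans of 1 family therefore had a like spread in *Dio3*-/- hearts, whereas in *Dio3*+/+ hearts *Lum* varied far more than *Dcn*.

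The fibulins had the lowest CVs of the 10 in *Dio3*+/+ hearts. *Fbln1* encodes fibulin 1, a glycoprotein of the cushion and valve matrix that binds fibronectin and versican. It had 48.4 RPKM (CV 0.05) in *Dio3*+/+ and 45.2 RPKM (CV 0.05) in *Dio3*-/- hearts (log2 fold change -0.10, SE 0.05, interval -0.22 to 0.02, limma-adjusted *P* = 0.378). *Fbln2*, which encodes fibulin 2 and is made where endocardial cells turn into mesenchyme, had 61.0 (CV 0.07) and 61.6 RPKM (CV 0.05), with a log2 fold change of 0.01 (interval -0.12 to 0.15, limma-adjusted *P* = 0.935). For both genes a difference beyond 0.861 or 1.11 times lies outside the intervals.

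*Fn1* encodes fibronectin, the fibril-forming glycoprotein on which integrins pull. Its means were 186 RPKM (CV 0.09) in *Dio3*+/+ and 202 RPKM (CV 0.05) in *Dio3*-/- hearts (log2 fold change 0.12, SE 0.07, interval -0.03 to 0.28, limma-adjusted *P* = 0.384). *Vcan* encodes versican, the large hyaluronan-binding proteoglycan of the cardiac jelly and the cushions. It had 87.8 RPKM (CV 0.20) and 73.2 RPKM (CV 0.05), with a log2 fold change of -0.26 (SE 0.12, interval -0.54 to 0.01, unadjusted *P* = 0.061 and limma-adjusted *P* = 0.292). *Tnc* encodes tenascin C, a glycoprotein that loosens cell adhesion and is made at sites of remodeling. It had the most negative difference of the 10, 21.3 RPKM (CV 0.61) in *Dio3*+/+ and 15.0 RPKM (CV 0.07) in *Dio3*-/- hearts (log2 fold change -0.50, SE 0.35, interval -1.27 to 0.28, limma-adjusted *P* = 0.488).

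*Eln* encodes tropoelastin, the monomer of elastic fibers, and had the largest difference in the positive direction. Its means were 73.1 RPKM (CV 0.12) in *Dio3*+/+ and 104 RPKM (CV 0.27) in *Dio3*-/- hearts, which is 1.42 times as high. The log2 fold change was 0.50 (SE 0.17, interval 0.12 to 0.89) with an unadjusted *P* value of 0.016 and a limma-adjusted *P* value of 0.152, and its adjusted *P* values ran from 0.119 to 0.369 over the alternatives. *Eln* is also the only one of the 10 that varied more among *Dio3*-/- than among *Dio3*+/+ hearts. *Eln* and *Tnc* thus had differences of equal size and opposite sign, and neither passed at a limma-adjusted *P* value under 0.05. The limma interval of *Eln*, which pools the spread of both genotypes, excluded 0, whereas that of *Tnc* (-1.27 to 0.28) included it. Welch's test, which does not pool the spread, gave *Eln* an unadjusted *P* value of 0.074.

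The spread between hearts was uneven among the 10 genes. Over all tested genes the median CV was 0.09 in *Dio3*+/+ and 0.06 in *Dio3*-/- hearts. *Tnc*, *Pdgfra* and *Lum* had *Dio3*+/+ CVs of 0.61, 0.55 and 0.55, wider than in 98.0%, 97.6% and 97.6% of all tested genes. In *Dio3*-/- hearts their CVs of 0.07, 0.10 and 0.05 were wider than in 52.6%, 74.7% and 29.3% of genes. Among the 5066 genes whose level over both genotypes lay between those of *Pdgfrb* and *Fn1*, 24 (0.474%) had a *Dio3*+/+ CV of 0.5 or more, these 3 among them. *Vcan* (0.20) and *Pdgfrb* (0.17) were intermediate in *Dio3*+/+ hearts, and *Fbln1*, *Fbln2*, *Dcn* and *Fn1* had CVs of 0.05 to 0.09, at or near the usual spread.

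**Figure D3:**
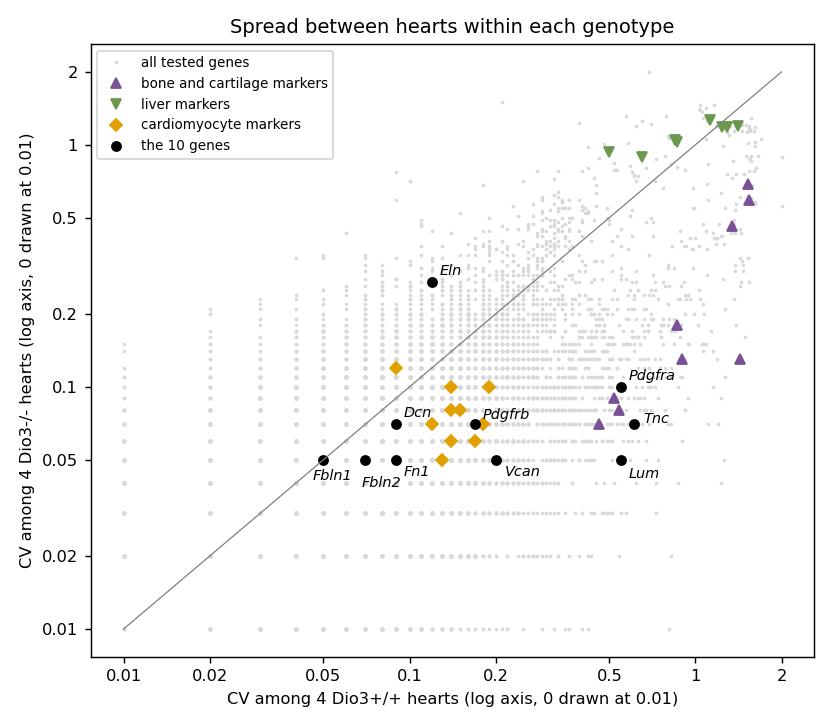
CV among 4 Dio3+/+ hearts (x axis) against CV among 4 Dio3-/- hearts (y axis), both on log axes, for all 14657 tested genes (gray), the 10 genes (black, named) and 3 marker lists. The diagonal marks equal spread. Tnc, Pdgfra and Lum lie far to the right beside the bone and cartilage markers, Eln lies above the diagonal, and the cardiomyocyte markers stay between 0.09 and 0.19 on the x axis.

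The same pattern, a CV of 0.5 or more in *Dio3*+/+ and of 0.12 or less in *Dio3*-/- hearts at a like level, was found under 15 symbols (0.296% of the 5066), a list drawn up after their values were seen, in which *Tem8* is an older name of *Antxr1*. Besides *Tnc*, *Lum* and *Pdgfra* it held *Ogn* (osteoglycin, CVs 0.90 and 0.06), *Lox* (lysyl oxidase, which crosslinks collagen and elastin, 0.52 and 0.04), *Twist1* (a mesenchymal transcription factor, 0.51 and 0.08) and *Ptn* (the secreted growth factor pleiotrophin, 0.80 and 0.07). Its other symbols were *Rian*, *Lhfpl2*, *Kctd12*, *Antxr1* with *Tem8*, *Hic1*, *Pcdh18* and *Prss35*. *Rian* had 86.3 RPKM (CV 0.58) in *Dio3*+/+ and 49.2 RPKM (CV 0.09) in *Dio3*-/- hearts. All 15 had the lower mean in *Dio3*-/- hearts. The choice of genes by wide *Dio3*+/+ spread favors this direction, since high values raise both the CV and the mean. Markers of bone and cartilage also had wide *Dio3*+/+ CVs, from 0.46 to 1.54 in the 9 tested of 12, and *Dio3*-/- CVs from 0.07 to 0.69. Of these 9, 6 passed the filter through their *Dio3*+/+ mean alone, so that their lower *Dio3*-/- mean is set in part by the filter. The 3 above 1 RPKM in both genotypes, *Sox9*, *Col2a1* and *Col9a1*, had log2 fold changes of -0.36, -0.87 and -0.24, *Dio3*+/+ CVs of 0.46, 0.52 and 0.54 and *Dio3*-/- CVs of 0.07, 0.09 and 0.08. Of the 3 left out by the filter, *Acan* had 0.95 and 0.72 RPKM, *Bglap* 0.07 and 0.10 RPKM and *Matn1* 0.02 and 0.04 RPKM. Summed over the 12 genes, the level was 74.0 RPKM in *Dio3*+/+ against 40.9 RPKM in *Dio3*-/- hearts, and none was at 0 in both. *Ibsp*, a bone sialoprotein of osteoblasts, had means of 11.3 (CV 1.54) and 0.03 RPKM (CV 0.59), and *Runx2*, the transcription factor of bone, 1.72 (CV 1.43) and 0.23 RPKM (CV 0.13). Whether these markers and *Tnc*, *Pdgfra* and *Lum* were high in the same hearts cannot be seen in genotype means, and the part of these other tissues in their values was not tested.

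The deposited summaries set limits on single hearts. Among 4 values, 1 can lie at most 1.5 SD above the mean, and the other 3 then lie 0.5 SD below it. By the CVs as deposited, no *Dio3*+/+ heart can therefore have exceeded 74.2 RPKM for *Lum*, 62.8 RPKM for *Pdgfra* or 40.9 RPKM for *Tnc*. With 1 heart at that limit the other 3 would be at 29.5, 24.9 and 14.8 RPKM, beside *Dio3*-/- means of 31.9, 27.0 and 15.0 RPKM. Whether 1 heart or several carried the spread cannot be read from the means.

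A similar limit bears on the ages in the labels. The average of any 2 of 4 hearts can differ from that of the other 2 by at most 1.73 SD, so that *Dio3*-/- hearts 3 and 4, the pair with E18.5 in the age field, differed from hearts 1 and 2 by at most 9.53% of the mean for *Lum*, *Fbln1*, *Fbln2*, *Fn1* and *Vcan*, allowing for the rounding of the CV. The limit was 13% for *Dcn*, *Pdgfrb* and *Tnc*, 18.2% for *Pdgfra* and 47.6% for *Eln*. Of the 10 genes, *Eln* thus leaves the most room for a difference between these pairs.

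*Eln* was not alone in its spread. A CV of 0.25 or more in *Dio3*-/- and of 0.15 or less in *Dio3*+/+ hearts was found in 12 of the 5066 genes of like level (0.237%), of which 7 are small noncoding RNAs by symbol (*Rnu12* and 6 of the *Snora* and *Snord* series). Another was *Fbln5*, which encodes fibulin 5, a protein that guides tropoelastin onto microfibrils. *Fbln5* had 27.3 RPKM (CV 0.10) in *Dio3*+/+ and 35.2 RPKM (CV 0.25) in *Dio3*-/- hearts (log2 fold change 0.36, interval 0.01 to 0.71, limma-adjusted *P* = 0.254). Below the level of the 10 genes, the pericyte marker *Rgs5* had 9.20 RPKM (CV 0.11) and 12.5 RPKM (CV 0.47), and the smooth muscle genes *Mylk* and *Ppp1r14a* had *Dio3*-/- CVs of 0.24 and 0.26. The other mural and smooth muscle genes tested from the list of fibroblast and mural cell genes did not share this spread, the *Dio3*-/- CVs of *Acta2*, *Tagln*, *Cnn1*, *Cspg4*, *Mcam*, *Notch3* and *Kcnj8* being 0.03 to 0.08 beside 0.07 for *Abcc9*. *Myh11*, the myosin of mature smooth muscle, was under 1 RPKM in both genotypes, at 0.46 (CV 0.59) and 0.77 RPKM (CV 0.57). *Fbln5*, *Rgs5*, *Mylk* and *Ppp1r14a* were picked here after their values were seen, and the part of vessel smooth muscle in the values of *Eln* was not tested.

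The transcript rows of a gene share exons and therefore reads, and the deposited table names them only by UCSC identifiers, so they are not independent measurements of isoforms. None of the 37 rows passed at a limma-adjusted *P* value under 0.05 (2.15% of all 32703 tested rows did), and 2 had an unadjusted one, *Eln* and 1 of the 10 rows of *Fn1*. That *Fn1* row had 154 RPKM (CV 0.08) in *Dio3*+/+ and 171 RPKM (CV 0.03) in *Dio3*-/- hearts, with a log2 fold change of 0.16 (unadjusted *P* = 0.028 and limma-adjusted *P* = 0.204). All 10 rows of *Fn1* were higher in *Dio3*-/- hearts, from 59.2 to 186 RPKM in *Dio3*+/+ and with log2 fold changes of 0.12 to 0.16. All 6 rows of *Vcan* were lower, from 10.2 to 87.8 RPKM and with log2 fold changes of -0.29 to -0.24. The 6 rows of *Pdgfra* had log2 fold changes of -0.34 to -0.21 and *Dio3*+/+ CVs of 0.54 to 0.55, and the 3 rows of *Tnc* had -0.50 to -0.42 and CVs of 0.56 to 0.62. The wide spread was therefore in every row of these genes. *Fbln2* had a row at 28.0 and 29.3 RPKM with a log2 fold change of 0.06, and the rows of *Dcn*, *Pdgfrb* and *Fbln1* differed from each other by at most 0.02 in log2 fold change. *Lum* and *Eln* have 1 row each.

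Around the 10 genes, 72 other genes of the interstitial matrix were examined, of which 60 passed the filter. This list and those that follow were drawn up with earlier results of these data known. The share of genes that passed in them is therefore not independent of those results. Of these, 5 (8.33%, beside 2.29% of all tested genes) passed with a limma-adjusted *P* value under 0.05, all 5 higher in *Dio3*-/- hearts, and 55 did not pass. The median log2 fold change of the 60 was 0.02. *Htra1*, a secreted serine protease that degrades matrix proteins, rose from 22.8 RPKM (CV 0.03) to 48.1 RPKM (CV 0.05), 2.11 times, with a log2 fold change of 1.06 (SE 0.05, limma-adjusted *P* = 5.74e-06). *Ltbp4*, which binds latent TGF-β and helps elastic fibers assemble, rose from 28.9 (CV 0.04) to 38.8 RPKM (CV 0.04), with a log2 fold change of 0.42 (limma-adjusted *P* = 0.00387). The microfibril-associated glycoprotein gene *Emilin2* rose by 0.38 (limma-adjusted *P* = 0.0103). *Hapln1*, which links versican to hyaluronan, rose by 0.30 on the log2 scale (limma-adjusted *P* = 0.0392), and *Loxl1*, a crosslinking enzyme of elastin, by 0.24 (limma-adjusted *P* = 0.0405). The last 2 did not pass once differences were taken relative to the median log2 ratio of all rows, with limma-adjusted *P* values of 0.0731 and 0.0839. The list's most negative log2 fold change was that of *Aspn* (asporin, -1.51, limma-adjusted *P* = 0.220). Next stood *Fap* (a protease of activated fibroblasts, -0.97, limma-adjusted *P* = 0.336). Their *Dio3*+/+ CVs were 1.11 and 1.15, in that order. *Fap* passed the filter through its *Dio3*+/+ mean of 1.28 RPKM alone, its *Dio3*-/- mean being 0.41 RPKM. Its low place on the list is therefore set in part by the filter.

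**Figure D4:**
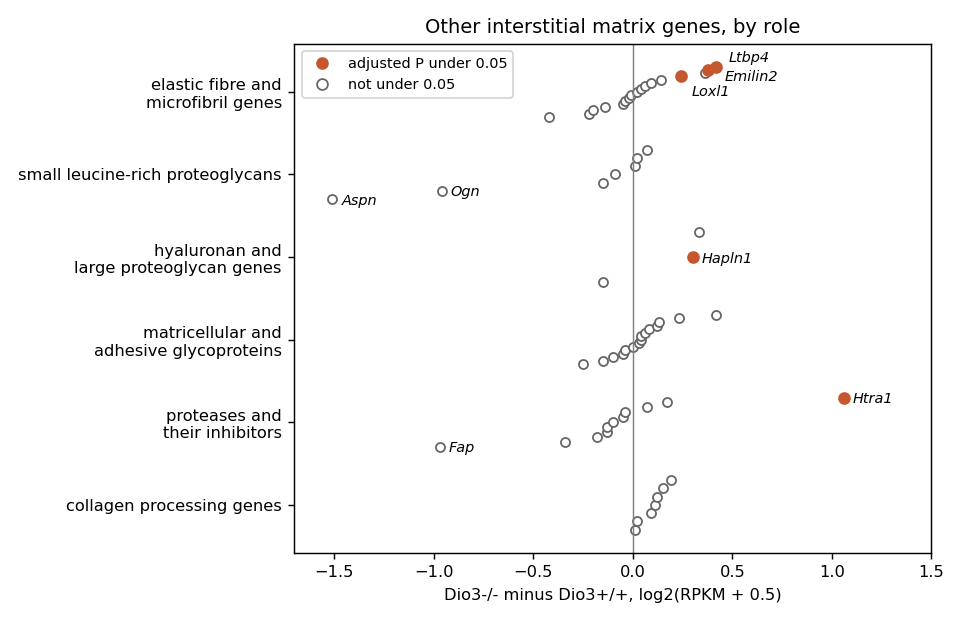
Difference between genotypes on the log2(RPKM + 0.5) scale (x axis, positive when higher in Dio3-/- hearts) for the 60 tested genes of the wider matrix list, 1 point per gene, grouped by role. Filled points passed at a limma-adjusted P value under 0.05, and all 5 (Htra1, Ltbp4, Emilin2, Hapln1 and Loxl1) lie to the right of 0.

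Grouped by role, the elastic fiber and microfibril genes had 3 of 17 tested members higher (*Ltbp4*, *Emilin2* and *Loxl1*), which is 17.6% beside 1.91% of all tested genes, and 0 lower. Their other 14 did not pass, among them *Fbn1* (fibrillin 1, log2 fold change 0.14), *Mfap4* (-0.22) and *Lox* (-0.14). None of the 7 tested small leucine-rich proteoglycans passed. *Bgn* (biglycan), the closest relative of *Dcn*, had 106 and 107 RPKM with CVs of 0.05 in both genotypes, whereas *Ogn* had 26.6 (CV 0.90) and 13.45 RPKM (CV 0.06). The other *Dio3*+/+ CVs of this group were 1.11 for *Aspn*, 0.29 for *Prelp*, 0.13 for *Ecm2*, 0.07 for *Omd* and 0.03 for *Fmod*. Wide and narrow spread thus both occurred in the family, and whether spread follows relatedness to *Dcn* or *Lum* was not tested. None of the 15 tested matricellular and adhesive glycoproteins passed, *Postn* (periostin, a product of valve and wall fibroblasts) having 144 (CV 0.17) and 147 RPKM (CV 0.04) and *Sparc* 452 and 435 RPKM. *Hapln1* alone passed of 3 tested hyaluronan and large proteoglycan genes, *Htra1* alone of 11 proteases and inhibitors, and 0 of 7 collagen processing genes passed. The roles were assigned after the values were seen.

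Genes of fibroblasts and mural cells were followed by a list of 27, of which 25 were tested. *Abcc9*, a subunit of ATP-sensitive potassium channels that mural cells and cardiomyocytes share, rose from 19.3 (CV 0.11) to 30.6 RPKM (CV 0.07), with a log2 fold change of 0.65 (limma-adjusted *P* = 0.00602; 0.0964 under Welch's test). The other 24 did not pass, and the median log2 fold change was -0.03. *Tcf21*, the transcription factor of the cardiac fibroblast lineage, had 17.0 (CV 0.13) and 18.6 RPKM (CV 0.11), and *Vim* (vimentin) had 636 and 637 RPKM. The most negative differences were those of *Prrx1* (a transcription factor of limb and skeletal mesenchyme, log2 fold change -1.11, *Dio3*+/+ CV 0.92) and *Ddr2* (a collagen receptor, -0.77, CV 0.92), and the highest after *Abcc9* was *Rgs5* (0.42). The fibrillar collagens also varied widely in *Dio3*+/+ and little in *Dio3*-/- hearts, though below the CV of 0.5 used above. *Col1a1* had 204 (CV 0.42) and 168 RPKM (CV 0.01), and *Col3a1* had 211 (CV 0.39) and 183 RPKM (CV 0.02). *Col1a2* had 143 (CV 0.47) and 116 RPKM (CV 0.03). The 95th percentile of the *Dio3*+/+ CV over all tested genes was 0.35. Of the 25 genes, 11 had a *Dio3*+/+ CV of 0.25 or more, and 1 had such a CV in *Dio3*-/- hearts.

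A list of ligands and partners of the PDGF receptors, which also holds the less direct *Furin* and *Vegfa*, had 16 tested genes. Of these, 3 (18.8%, beside 1.91% of all tested genes) were higher in *Dio3*-/- hearts, 0 were lower and 13 did not pass. *Furin*, a protease that activates many proproteins, PDGF precursors among them, rose from 46.5 (CV 0.03) to 77.8 RPKM (CV 0.07), with a log2 fold change of 0.74 (limma-adjusted *P* = 0.000291; 0.060 under Welch's test). *Vegfa*, a vascular growth factor related to the PDGFs, rose by 0.47 on the log2 scale (limma-adjusted *P* = 0.00228) and the phosphatase gene *Ptpn11* by 0.25 (limma-adjusted *P* = 0.0247). *Furin*, *Vegfa* and *Ptpn11* also act in many pathways apart from PDGF. Since the list was drawn up with earlier results of these data known, its share of 18.8% is not independent of those results. The ligands themselves did not pass. *Pdgfa* had 15.2 and 15.7 RPKM, *Pdgfb* 4.00 and 4.23 RPKM, *Pdgfc* 8.10 (CV 0.45) and 6.17 RPKM (CV 0.13), and *Pdgfd* 2.71 and 2.92 RPKM. The lowest log2 fold changes of the list were those of *Pdgfc* (-0.37) and the kinase gene *Src* (-0.23).

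Of 13 tested receptors for fibronectin, tenascin C, versican and the small proteoglycans, 2 (15.4%, beside 1.91% of all tested genes) were higher in *Dio3*-/- hearts and 0 (beside 0.382%) were lower. *Itga9*, an integrin chain that binds tenascin C, rose from 13.8 (CV 0.03) to 17.2 RPKM (CV 0.04), with a log2 fold change of 0.31 (limma-adjusted *P* = 0.0133). *Itga8*, an integrin chain that binds fibronectin and tenascin C, rose from 7.0 (CV 0.12) to 9.60 RPKM (CV 0.05), with a log2 fold change of 0.43 (limma-adjusted *P* = 0.0339). *Itga5*, the main fibronectin receptor chain, had 46.4 and 48.4 RPKM, and the hyaluronan receptor gene *Cd44* had 21.6 and 19.3 RPKM (limma-adjusted *P* = 0.145). At the low end stood *Egfr* (log2 fold change -0.45, *Dio3*+/+ CV 0.74) and *Itgb3* (-0.43). Neither integrin chain passed under Welch's test (adjusted *P* = 0.0617 for *Itga9* and 0.179 for *Itga8*).

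Cell markers describe the tissue behind these values. All 10 cardiomyocyte markers were expressed, with summed means of 10600 and 12000 RPKM. Of them 1 (10%, beside 1.91% of all tested genes), *Ryr2*, was higher in *Dio3*-/- hearts (limma-adjusted *P* = 0.0231). None of 8 endothelial, 8 epicardial and 7 tested macrophage markers passed, with median log2 fold changes of 0.11, 0.10 and -0.06. Red cell markers were lower in sum, 29900 against 10200 RPKM. Of 7 tested, 1 passed as lower (14.3%, beside 0.382% of all tested genes), *Hbb-bh1* (limma-adjusted *P* = 0.0468). Liver markers were higher in sum, 16.0 against 108 RPKM, with 0 of 8 passing and *Dio3*-/- CVs of 0.89 to 1.26. Of these, *Fgb*, *Ttr* and *Ahsg* passed the filter through their *Dio3*-/- mean alone. Of 9 tested bone and cartilage markers 1 passed as lower (11.1%, beside 0.382% of all tested genes), *Ibsp* (limma-adjusted *P* = 0.0330), although its *Dio3*+/+ CV was 1.54. Of these 9, 6 passed the filter through their *Dio3*+/+ mean alone, among them *Ibsp*, *Alpl* and *Runx2*. The lower *Dio3*-/- means of these 6, and the shares here that count them, are set in part by the filter. Of 3 tested Schwann cell and neuron markers 1 (33.3%, beside 1.91% of all tested genes), *Tubb3*, was higher (limma-adjusted *P* = 0.00856), and 1 lung and foregut marker was tested and did not pass. Under Welch's test none of these 4 marker calls held, with adjusted *P* values of 0.165 for *Ryr2*, 0.197 for *Hbb-bh1*, 0.243 for *Ibsp* and 0.0697 for *Tubb3*. An unadjusted limma *P* value under 0.05 was found for 8 of 8 liver, 6 of 7 red cell, 5 of 10 cardiomyocyte and 4 of 9 bone and cartilage markers. It was found for 3 of 8 endothelial, 2 of 8 epicardial, 0 of 7 macrophage and 1 of 3 Schwann cell and neuron markers, beside 19.7% of all tested genes. The targeted gene *Dio3* had means of 0.35 (CV 1.23) and 0.13 RPKM (CV 0.76), too low to check the labels. The part of these cell types in the values of the 10 genes was not tested.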

How the data were processed

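The authors and a sequencing company removed ribosomal RNA, aligned single-end reads with NovoAlign (version 2.08), kept uniquely mapping reads and scaled each sample linearly to the one with the fewest reads. Their genome build is not given in the sources used here. Per the file headers, the deposited table holds a mean per genotype, read here as RPKM from the methods' filter, and a coefficient of variation (the ratio SD/mean). Its fold changes, *q* values and flags are the authors' comparisons and were not used. Depth per sample is unknown from these values.

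Means were converted to log2(RPKM + 0.5) and SDs were derived from the coefficients of variation. Variances pooled over genotypes (6 residual df) were shrunk toward a mean-variance trend by limma 3.58.1 in R 4.3.3, with 3.52 prior df. Benjamini-Hochberg adjustment covered the 32703 rows in which either genotype mean exceeded 1 RPKM. The fit was tested on simulated data in which both genotypes had the same spread, so that test does not cover genes of unequal spread such as *Tnc*, *Pdgfra* and *Lum*. The fit takes the log of a mean for the mean of logs, least reliably at wide spread. The 8 hearts are separate fetuses. Members and gene lists were chosen with earlier results of these data known. Named were the 10 genes and, of each further list, genes with an adjusted *P* value under 0.05 and the 2 highest and 2 lowest, and of marker lists only those that passed. Others were named after their values were seen. The 10 alternatives were pseudocounts of 0.1 and 1, no filter on low values, a mean above 5 RPKM over both genotypes, no mean-variance trend, 1 row per gene, Welch's test, centering on the median log2 ratio, coefficients of variation raised by 0.005, and no rows with one above 0.5. Figures were drawn with matplotlib (version 3.10.9).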

Additional observations from a re-analysis of the deposited data

How the results depend on the processing

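The 10 genes stayed above an adjusted *P* value of 0.05 in each of the 10 alternatives and in each of their other transcript rows, and 122 of their values kept direction and side of the threshold and 2 turned. Those 2 came from centering (subtracting the median log2 ratio of all rows, 0.04), which turned the log2 fold change of *Dcn* to -0.01 and that of *Fbln2* to -0.02. *Tnc*, *Pdgfra* and *Lum* gave no value when rows with a coefficient of variation over 0.5 were dropped, since that alternative leaves them out. The number of other matrix genes that passed, 5, was 3 with centering, 3 without the mean-variance trend, 3 with each coefficient of variation raised by its largest rounding error (0.005) and 2 with Welch's test. Welch's test also took the fibroblast and mural cell genes from 1 to 0 and the PDGF ligands and partners from 3 to 1. Over all genes the number was 336. It was 197 without a filter on low values, 180 with centering (129 higher and 51 lower, against 280 and 56), 187 with the raised coefficients and 27 with Welch's test. It was larger with a mean above 5 RPKM, 382 (316 higher and 66 lower), and without rows over a coefficient of variation of 0.5, 495 (399 higher and 96 lower), and between 250 and 336 in the other settings. *Htra1*, *Ltbp4* and *Vegfa* passed in all 11 settings, *Abcc9*, *Emilin2* and *Furin* in 10, *Ptpn11* in 9, *Loxl1* in 7 and *Hapln1* in 6. No paired analysis was possible because the table's columns hold genotype means and carry no replicate numbers, and leaving out single hearts was not possible for the same reason.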
